A study of Homo sapiens with 4 samples.

Results

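The genes described here are 30 epithelial junction and polarity genes. They were chosen by name for their roles in the adherens junction, the desmosome, the tight junction, apical polarity and the epithelial surface. Their values were not a criterion, but the list was made with earlier results of these data known. The arrays measured 19775 genes through a probe set with a single gene symbol, and 28 of the 30 were among them. CTNND1 (p120 catenin, which stabilises cadherins at the membrane) was not analysed here because its probe sets carry more than 1 symbol, and F11R (junctional adhesion molecule A) was not analysed here because none carried that name. Each gene was followed through its brightest such probe set, the one whose log2 signal averaged highest on the 4 arrays. Of the 28, 26 had a geometric mean signal of at least 15 over the arrays and are called kept. The other 2, CDH1 and CDH3, lay below it and are set apart.

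Epithelial cells are joined side by side by adherens junctions, in which cadherins bind across the gap and catenins tie them to actin, and by desmosomes, in which desmosomal cadherins are anchored to keratin through plakins and plakophilins. Tight junctions seal the space between cells with claudins, occludin and related membrane proteins, held by the scaffold proteins of the ZO family and by cingulin. The PAR and Crumbs complexes place these junctions near the apical surface. Loss of E-cadherin is a common event in carcinoma, and many carcinoma lines keep other junction proteins.

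The cells were SK-BR-3, an established line from a human breast carcinoma in which HER2 is amplified and p53 is mutant. Each of 4 groups had its RNA measured on 1 Affymetrix array. All cells had first received an shRNA vector, against p53 or the control that the labels name both control shRNA and empty vector, and had been selected with puromycin. The groups were control shRNA, p53 shRNA, siRNA against Pontin on control shRNA, and p53 shRNA with siRNA against Pontin. The arms without Pontin siRNA carry the unexplained word sicon in their titles, and RNA was taken 24 h after siRNA transfection. Pontin is the product of RUVBL1, an AAA+ ATPase of chromatin remodelling and other complexes. All groups carry the mutant p53 gene, and the shRNA is directed at p53. The labels do not say whether the shRNA cells were clones or pools, and they name no sequence for either agent.

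Each value is a linear MAS5 signal, scaled by the authors so that each array had a trimmed mean of 150.02 after removal of its lowest and highest 2%. Ratios are differences of log2 signals. With 1 array per group there is no replicate within a group and no error for a value, and a difference was judged by its size in 2 matched pairs that share no array. For p53 shRNA the pairs were p53 shRNA over control, and both agents over Pontin siRNA alone. The Pontin pairs were Pontin siRNA over control, and both agents over p53 shRNA alone. A gene was called where both pairs differed in the same direction by 1.5-fold or more, a log2 ratio of 0.58. A lower bar, a log2 ratio of 0.32 in the same direction in both pairs, was used to describe smaller differences. The p53 and Pontin comparisons use the same 4 arrays, so their values are given side by side and are not independent of each other.

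RUVBL1 had a signal of 478 in the control, 398 after p53 shRNA, 127 after Pontin siRNA and 65.8 after both. It was lower on both Pontin siRNA arrays, with log2 ratios of -1.91 and -2.60. The median signal of all probe sets was 15.9 to 16.5 on the other 3 arrays and 19.6 on the array with both agents. Luminal markers marked the cells as labelled: all 5 (KRT7, KRT8, KRT18, KRT19 and CD24) were at or above 15, with summed signals of 37201 in the control, 38653 after p53 shRNA, 37670 after Pontin siRNA and 42719 after both. Of the markers of other cells, 2 of 10 mesenchymal ones reached that level (FN1 and COL1A1, with VIM, ZEB1, ZEB2, TWIST1 and SNAI2 below it), as did 2 of 3 measured basal, 1 of 5 measured immune and 2 of 4 endothelial ones, with PTPRC, VWF and KDR below it. The summed immune signal ran from 68.1 to 90.5 over the arrays. Other sums separated the p53 shRNA arrays from those without it. The basal sum was 288 and 270.5 against 266 and 235, and the endothelial 152 and 162 against 106 and 102. The basal separation rested on KRT14, a marker below the minimum, at 16.2 after both and 1.2 in the control. TRIM29, the brightest basal marker, did not separate the arrays, at 226.6 after both and 237.8 in the control. The mesenchymal sum was lower on the p53 shRNA arrays, 1432 and 1423 against 1556 and 1672. FN1 alone made up most of it, at 1224 and 1176 against 1350 and 1451. COL1A1 had p53 log2 ratios of -0.08 and -0.01, and the mesenchymal markers below the minimum had no common direction in the p53 pairs. The luminal sum was higher on the p53 shRNA arrays too, and each of the 5 luminal markers was higher in both p53 pairs. So were 18 of the 26 junction genes kept, a looser measure than a separation of the arrays. The part of these cell markers in the junction genes' values was not tested. None of the 12 markers kept was called for either knockdown.

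None of the 26 junction and polarity genes kept was called for either knockdown. With p53 shRNA the count was 0 higher and 0 lower, where 1.44% of all 12128 genes kept were called higher and 0.866% lower. With Pontin siRNA it was again 0 in each direction, against 1.19% and 1.253%. Shares of this size would correspond to less than 1 gene in a list of this length, so the empty counts lie near the background. None of the 26 reached 1.5-fold in opposite directions in its pairs. An additive fit in limma, run as an alternative, takes the pairs as replicates and has a single residual degree of freedom over the 4 arrays. It gave an adjusted p under 0.05 for 0 of all genes kept in either knockdown, members included. RUVBL1, the target of the siRNA, was among these genes despite Pontin log2 ratios of -1.91 and -2.60. An adjusted p above that level therefore says little about a member. At an unadjusted p under 0.05 the fit gave 1 of 26 members for p53 shRNA (CLDN3), beside 1382 of all 12128 genes kept. For Pontin siRNA it gave 4 of 26 (CLDN1, CLDN3, CLDN12 and ST14), beside 1729 of 12128, a like share.

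The differences that were there were small, and with p53 shRNA they lay mostly on one side. Of the 26 genes kept, 18 were above 0 in both p53 pairs and 3 below 0 in both (JUP, CGN and MARVELD3), which is 69.2% and 11.5%, where 30.7% and 32.1% of all genes kept did so. Among bright genes, those with a mean signal in the upper quartile of probe sets (at least 110.9), 16 of 23 were above 0 in both pairs and 3 below, against 30.1% and 36.6%. The members' median log2 ratio was 0.13 in the pair without Pontin siRNA and 0.08 in the pair with it, where the medians of all genes kept were 0.0 and -0.0097. As a mean of both pairs the members ran from -0.17 (MARVELD3) to 0.40 (CLDN3), with a median of 0.11. The count above 0 was 17 with quantile normalization and 18 with cyclic loess normalization or a pseudocount, but 1 (CLDN3) when each array was centred on its own median, which moved the median of all genes kept to -0.13. After that centring 4 members were below 0 in both pairs, and the shares of all genes kept were 11.59% above and 45.35% below. The members' median lay 0.12 above that of all genes kept, a distance that centring leaves as it is by construction. In RNA from whole cultures, fewer cells expressing a gene and less of its RNA per cell cannot be told apart.

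At the lower bar, 0 members were higher and 0 lower with p53 shRNA, while 4.96% and 3.46% of all genes kept were, and 1.95% and 1.94% of bright genes. The nearest to it was CLDN3. The sizes were near those of other genes: the median absolute log2 ratio of the bright members was 0.14 and 0.10 in the p53 pairs, and that of all bright genes 0.12 and 0.13.

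With Pontin siRNA the members went both ways. Above 0 in both pairs were 14 of 26, and below 0 in both 8, or 53.9% and 30.8%, where 33.8% and 31.9% of all genes kept did so. Of the bright members 13 were above and 7 below, against 34.3% and 36.3%. At the lower bar, 2 members were higher, CLDN3 and ST14, and 1 lower, CLDN1. The background shares were 4.83% higher and 5.01% lower among all genes kept. Among bright genes they were 2.15% and 4.58%, where the members counted 2 higher and 0 lower. Quantile and loess normalization and the pseudocount gave the same 3 genes. Median centring, which moved the median of all genes kept to -0.16, left 0 higher and 2 lower (CLDN1 and CLDN12), and 2 above 0 and 15 below 0 in both pairs, where 11.14% and 51.85% of all genes kept were. As a mean of both pairs the members ran from -0.47 (CLDN1) to 0.46 (CLDN3), with a median of 0.07 against 0.01 over all genes kept. Signs given for single genes are those on the signals as deposited, and median centring turned the sign of 18 of the members' mean ratios, none of them those of CLDN3, CLDN1, CLDN12 or ST14.

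**Figure D1:**
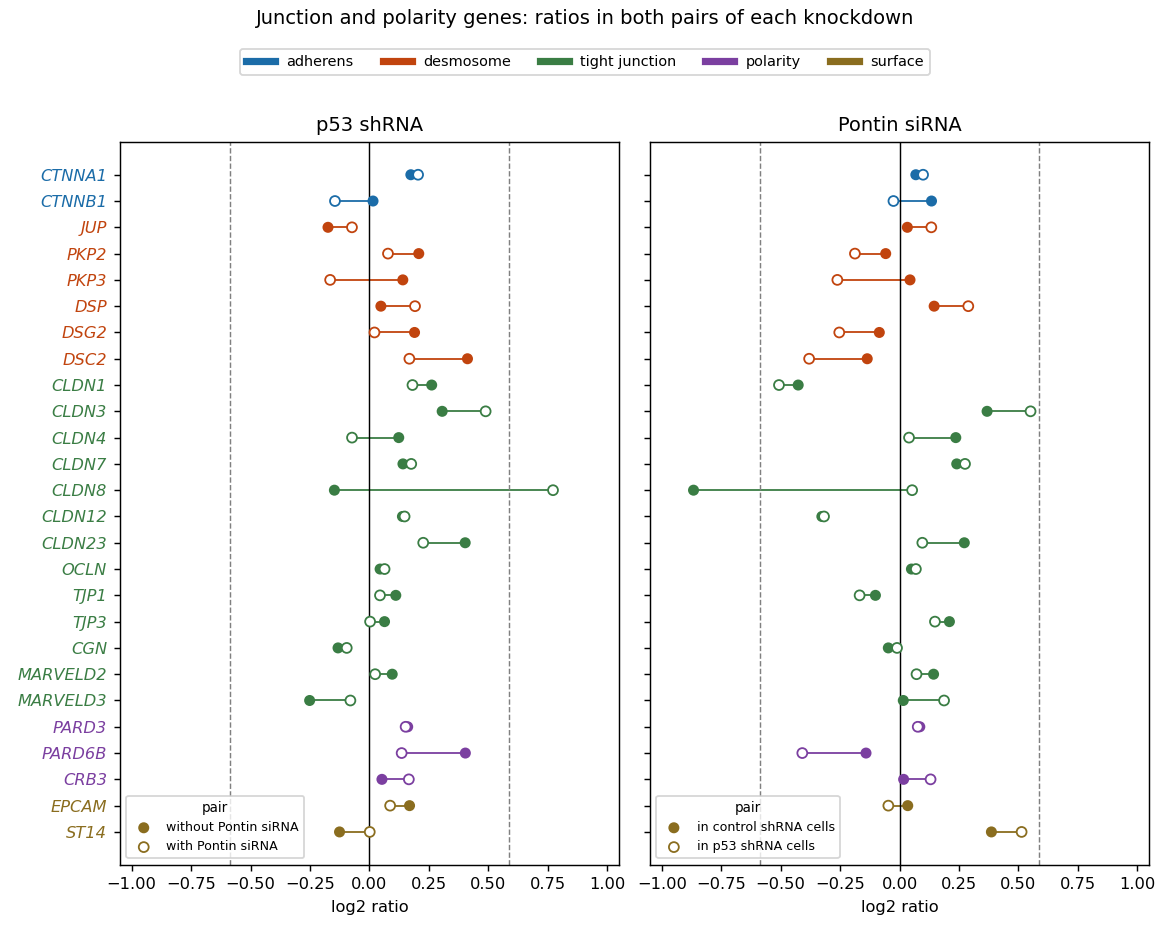
Log2 ratio (horizontal axis) of each of the 26 junction and polarity genes kept, on the signals as deposited, with p53 shRNA (left) and Pontin siRNA (right). Filled points are the pair on the control background and open points the pair on the background of the other agent, joined by a line, with dashed lines at 1.5-fold and colours for the sub-groups; 18 genes lie above 0 in both p53 pairs (1 after median centring), and no gene has both points beyond a dashed line on the same side.

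**Figure D2:**
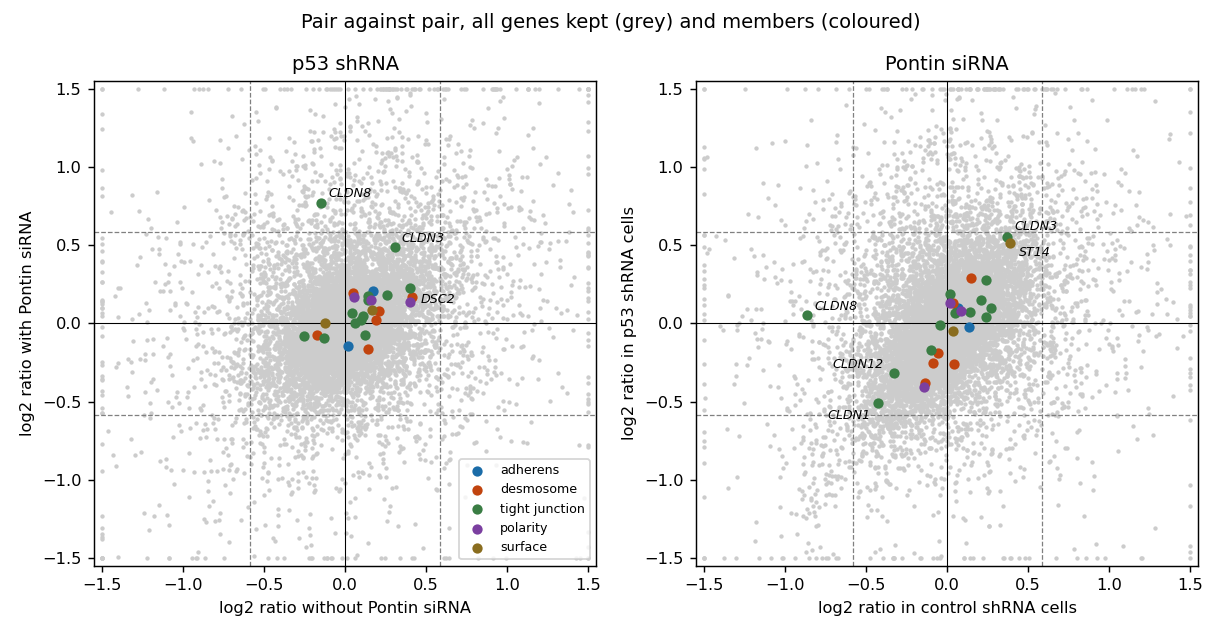
Log2 ratio in the second pair (vertical) against the first pair (horizontal) for all 12128 genes kept (grey) and the 26 members (coloured by sub-group), for p53 shRNA (left) and Pontin siRNA (right). Dashed lines mark 1.5-fold and ratios beyond 1.5 on the log2 scale are drawn at the edge; the members lie within the grey cloud, and CLDN8 is the member farthest from the line of equal ratios.

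The cadherins themselves were the genes set apart. CDH1 encodes E-cadherin, the main adhesion molecule of the epithelial adherens junction, and SK-BR-3 is known as a line without it. Its signals were 5.3 in the control, 1.8 after p53 shRNA, 13.0 after Pontin siRNA and 9.3 after both, a geometric mean of 5.83. The 2 Pontin siRNA arrays were the higher ones, all 4 signals were below 15, and the second CDH1 probe set was dimmer still, at a geometric mean of 2.26 with no common order. CDH3, the P-cadherin gene, read 0.9, 0.5, 0.7 and 2.1 in the same order. Signals this low have no dependable order and no ratio is drawn from them. CDH1 would pass the 1.5-fold rule for Pontin siRNA only if no signal minimum were applied. The classical cadherins of other tissues were below the minimum as well, CDH2 (N-cadherin) at a geometric mean of 4.88 and CDH11 at 7.7.

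The catenins that bind those cadherins had signals far above the minimum on every array. CTNNA1 encodes alpha-catenin, the link between the cadherin complex and actin. Its signals were 3817 in the control, 4307 after p53 shRNA, 4002 after Pontin siRNA and 4612 after both. Both p53 shRNA arrays were above both arrays without it, by 0.17 and 0.20 in log2, and the Pontin ratios were 0.07 and 0.10. The other 2 strong CTNNA1 probe sets gave p53 ratios of 0.12 and 0.12, and 0.15 and 0.11. After median centring the p53 mean kept its sign and the Pontin mean did not. CTNNB1 encodes beta-catenin, which also carries Wnt signals to the nucleus. It read 2260.0, 2284, 2481 and 2243 in that order, and its p53 ratios of 0.02 and -0.14 had opposite signs, as had its Pontin ratios of 0.13 and -0.03. The adherens sub-group thus rests on 2 of its 5 genes, with medians of 0.06 for p53 shRNA and 0.07 for Pontin siRNA as deposited and -0.0665 and -0.10 after median centring.

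All 6 desmosome genes were kept, and with Pontin siRNA they had the only negative median of the sub-groups as deposited, -0.12, beside 0.11 with p53 shRNA. After median centring that Pontin median was -0.29, and those of the other sub-groups but the surface genes were below 0 too. DSP encodes desmoplakin, which connects the desmosomal plaque to keratin filaments. Its signals were 3490.3 in the control, 3609 after p53 shRNA, 3861 after Pontin siRNA and 4409 after both. Each agent alone and both together stood above the control, with p53 ratios of 0.05 and 0.19, Pontin ratios of 0.15 and 0.29, and 0.34 for both over control. JUP encodes plakoglobin, shared by desmosomes and adherens junctions. It read 1643, 1456, 1681 and 1597, with the p53 ratios of -0.17 and -0.07 below 0 and the Pontin ratios of 0.03 and 0.13 above it.

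The desmosomal cadherins had another pattern. DSC2 encodes desmocollin 2, and its signals were 1963 in the control, 2612 after p53 shRNA, 1786 after Pontin siRNA and 2007 after both. The p53 shRNA array was the highest and the Pontin siRNA array the lowest, while the array with both lay 0.03 from the control in log2. The p53 ratios were 0.41 and 0.17 and the Pontin ratios -0.14 and -0.38. Its other 3 probe sets had p53 ratios of 0.62 and 0.11, 0.39 and -0.04, and 0.45 and 0.08, so the first pair was the larger on each. Their Pontin ratios were 0.06 and -0.45, 0.17 and -0.26, and -0.08 and -0.44. The Pontin siRNA array was thus not the lowest on each of them. DSG2, desmoglein 2, had p53 ratios of 0.19 and 0.02 and Pontin ratios of -0.09 and -0.25. The plakophilins PKP2 and PKP3, which strengthen the plaque, had signals of 209.8 and 959 with p53 shRNA alone, against 182 and 869.8 in the control. The p53 ratios were 0.21 and 0.08 for PKP2, and 0.14 and -0.17, of opposite sign, for PKP3. The Pontin ratios were -0.06 and -0.19 for PKP2 and 0.04 and -0.26 for PKP3. In the pair on p53 shRNA, 4 of the 6 desmosome genes had Pontin ratios between -0.38 and -0.19, with JUP and DSP above 0. The median absolute ratio in that pair was 0.20 over all genes kept and 0.16 over bright genes. The second probe sets of PKP3 and DSG2 had 0.37 and -0.15 there.

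The tight junction supplied the widest range of values, with 13 of its 14 genes kept and medians of 0.08 for p53 shRNA and 0.10 for Pontin siRNA as deposited, and -0.0511 and -0.0717 after median centring. CLDN3 encodes claudin 3, a barrier-forming claudin common in breast epithelium. Its signals were 123 in the control, 152 after p53 shRNA, 159 after Pontin siRNA and 223 after both. All 3 treated arrays were above the control and the array with both agents was the highest. The p53 ratios were 0.31 and 0.49, the Pontin ratios 0.37 and 0.55, and both over control 0.86, the largest of the members. Its second probe set read 108, 133, 152 and 143, where the array with both agents was not the highest, with p53 ratios of 0.31 and -0.09 and Pontin ratios of 0.49 and 0.10. Both CLDN3 probe sets are of types that can bind related transcripts (_s_at and _x_at), so CLDN3 drops out where those types are excluded. In the limma fit CLDN3 had an adjusted p of 0.415 for p53 shRNA and 0.342 for Pontin siRNA.

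CLDN1 encodes claudin 1, a sealing claudin that is low in many breast carcinomas. Its signals were 98.5 in the control, 118 after p53 shRNA, 73.3 after Pontin siRNA and 83.1 after both. Both Pontin siRNA arrays were below both others, with Pontin ratios of -0.43 and -0.51, while the p53 ratios of 0.26 and 0.18 were above 0. The gene was kept but not bright, and its dimmer probe set, with a geometric mean of 19.8, had Pontin ratios of -0.85 and 0.58 in opposite directions. CLDN12, an atypical claudin, followed the order of CLDN1 at 382, 421, 305 and 338. Its Pontin ratios were -0.33 and -0.32, the second just short of the lower bar, and its p53 ratios 0.14 and 0.15. The adjusted p of the limma fit for Pontin siRNA was 0.342 for both genes.

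CLDN7 and CLDN4 are the other strongly measured claudins. CLDN7 encodes claudin 7, which is abundant in luminal breast epithelium, and read 2112 in the control, 2329 after p53 shRNA, 2495 after Pontin siRNA and 2818 after both. Each of its 4 ratios was above 0, at 0.14 and 0.18 for p53 and 0.24 and 0.28 for Pontin, and both over control was 0.42. CLDN4, whose gene is the next protein-coding neighbour of CLDN3 on chromosome 7, read 902, 983, 1063 and 1010.1. Its p53 ratios of 0.12 and -0.07 and Pontin ratios of 0.24 and 0.04 were all smaller in size than those of CLDN3. CLDN23 had p53 ratios of 0.40 and 0.23 and Pontin ratios of 0.27 and 0.10, but its second probe set gave p53 ratios of -0.13 and 0.07. CLDN8 lay just above the signal minimum, at a geometric mean of 19.6, with signals of 23.7, 21.4, 13.0 and 22.2, and its pairs did not match in either knockdown.

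Occludin and its relatives, the membrane proteins that share the tight junction strand with claudins, differed little on their brightest probe sets. OCLN read 1754 in the control, 1809 after p53 shRNA, 1815 after Pontin siRNA and 1897 after both. No ratio of a matched pair exceeded 0.07, with p53 ratios of 0.04 and 0.06 and Pontin ratios of 0.05 and 0.07. Its other 3 probe sets had p53 means of 0.31, 0.11 and 0.05, the largest from pair ratios of 0.48 and 0.13, and Pontin means below 0, from -0.17 to -0.05. MARVELD2 (tricellulin), the neighbour of OCLN on chromosome 5, had p53 ratios of 0.10 and 0.02 and Pontin ratios of 0.14 and 0.07. MARVELD3 had the lowest p53 mean of the members, from -0.25 and -0.08, and Pontin ratios of 0.02 and 0.19. A second MARVELD3 probe set gave -0.35 and -0.51 for Pontin siRNA, the opposite sign, so MARVELD3 has no settled direction.

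The scaffolds under the strand also differed little. TJP1 encodes ZO-1, which binds claudins and occludin to actin, and read 1233 in the control, 1332 after p53 shRNA, 1149 after Pontin siRNA and 1185 after both. The p53 shRNA array was the highest, with p53 ratios of 0.11 and 0.04, and both Pontin ratios, -0.10 and -0.17, were below 0. A dimmer TJP1 probe set, at a geometric mean of 71.1, had p53 ratios of the opposite sign, -0.15 and -0.22. TJP3 (ZO-3) had p53 ratios of 0.06 and 0.0028 and Pontin ratios of 0.21 and 0.15. CGN (cingulin, which links the junction to myosin) had p53 ratios of -0.13 and -0.10 and Pontin ratios of -0.05 and -0.01, and its second probe set had p53 ratios of the opposite sign, 0.12 and 0.02.

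The upstream sequence of 17 of the 30 genes was at hand, in 28 RefSeq promoter entries (GRCh38.p14), each read over the 250 bases before a transcription start. The element CACCTG or its reverse complement CAGGTG, an E-box of the kind bound by the repressors SNAI1, SNAI2, ZEB1 and ZEB2, was searched on both strands. It was present in 10 of the 28 entries (35.7%) and in 9 genes (CLDN7, CRB3, DSC2, DSG2, DSP, JUP, OCLN, TJP1 and TJP3), where 17.5% of all 35116 entries of that length held it. The entries were also richer in G and C, with a median of 66.8% against 58.0%, and GGGCGG or CCGCCC was in 21 of 28 entries, where 42.6% of all held it, and CCAAT or ATTGG was in 25.0% against 32.0%. Entries of the same gene can overlap and are not independent. A single entry is shown per gene, and an entry with a match was taken first where a gene had several. OCLN and CLDN7 had 2 entries each, so their counts below hold for the entry shown. The 5 shown carry the contrast between genes with many, few and no such elements, and CLDN3 and CLDN1 are the claudins at the ends of the Pontin range. They are printed with CACCTG and CAGGTG in capitals, 5′ to 3′ on the strand of the gene. CRB3 (chr19:6464021-6464270, plus strand) has 5 matches, CLDN7 (chr17:7262479-7262728, minus strand) 4, OCLN (chr5:69492297-69492546, plus strand) 1, and CLDN3 (chr7:73770271-73770520, minus strand) and CLDN1 (chr3:190322447-190322696, minus strand) 0.
CRB3: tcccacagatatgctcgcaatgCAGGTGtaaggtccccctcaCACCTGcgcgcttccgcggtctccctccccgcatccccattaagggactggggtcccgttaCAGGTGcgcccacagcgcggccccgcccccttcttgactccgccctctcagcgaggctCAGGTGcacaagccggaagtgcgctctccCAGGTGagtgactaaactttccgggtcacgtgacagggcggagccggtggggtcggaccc
CLDN7: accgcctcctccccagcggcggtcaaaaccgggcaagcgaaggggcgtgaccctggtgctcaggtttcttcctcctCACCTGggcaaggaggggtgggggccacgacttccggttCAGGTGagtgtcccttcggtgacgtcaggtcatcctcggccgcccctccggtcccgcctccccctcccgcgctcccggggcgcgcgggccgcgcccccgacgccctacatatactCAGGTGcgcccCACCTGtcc
OCLN: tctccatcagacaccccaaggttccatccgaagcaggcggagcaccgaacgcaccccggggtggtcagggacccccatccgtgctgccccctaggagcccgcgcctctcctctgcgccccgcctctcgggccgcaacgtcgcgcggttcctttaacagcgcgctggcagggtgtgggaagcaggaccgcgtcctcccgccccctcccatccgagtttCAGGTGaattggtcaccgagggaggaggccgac
CLDN3: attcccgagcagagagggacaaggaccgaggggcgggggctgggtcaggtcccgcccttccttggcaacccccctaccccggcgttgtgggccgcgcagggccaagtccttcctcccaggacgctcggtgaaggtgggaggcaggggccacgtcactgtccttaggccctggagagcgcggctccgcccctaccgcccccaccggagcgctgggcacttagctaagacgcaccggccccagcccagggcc
CLDN1: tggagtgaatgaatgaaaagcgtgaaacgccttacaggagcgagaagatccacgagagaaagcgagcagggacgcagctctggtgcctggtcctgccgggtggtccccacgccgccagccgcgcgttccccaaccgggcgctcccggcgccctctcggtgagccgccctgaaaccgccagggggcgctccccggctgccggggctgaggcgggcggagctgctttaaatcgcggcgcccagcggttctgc
A match is a string of letters and not a site of binding, and no match says only that the letters are not in this window. Genes with the element were found on both sides of 0 in the Pontin pairs, CLDN7, CRB3, DSP, JUP, OCLN and TJP3 above it and DSC2, DSG2 and TJP1 below it. In both p53 pairs JUP was below 0 and the others with the element above it, as were 18 of all 26 members kept (1 after median centring). The part of the element in these values was not tested.

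The 3 polarity genes were all above 0 in both p53 pairs as deposited and 0 of them after median centring, with medians of 0.16 and 0.0278. PARD6B encodes a PAR6 protein, the adaptor that brings atypical protein kinase C to the PAR complex, and read 716 in the control, 947 after p53 shRNA, 649 after Pontin siRNA and 713 after both. As in DSC2, the p53 shRNA array was the highest and the array with both was near the control. Its p53 ratios were 0.40 and 0.14 and its Pontin ratios -0.14 and -0.41. PARD3, the scaffold of that complex, had nearly equal ratios in both pairs, 0.16 and 0.15 for p53 and 0.09 and 0.08 for Pontin. All 4 PARD3 probe sets had a p53 mean above 0, from 0.16 to 0.31. CRB3, the Crumbs protein of the apical membrane, had p53 ratios of 0.05 and 0.17 and Pontin ratios of 0.02 and 0.13.

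The 2 surface genes differed from each other. EPCAM, the epithelial adhesion molecule that associates with claudin 7, read 5622 in the control, 6319.7 after p53 shRNA, 5758 after Pontin siRNA and 6116 after both. Its p53 ratios were 0.17 and 0.09, and its Pontin ratios of 0.03 and -0.05 were of opposite sign. ST14 encodes matriptase, a membrane serine protease that acts on EPCAM and on other substrates at the epithelial surface. It read 892, 817, 1165 and 1167 in that order, so that both Pontin siRNA arrays were above both others. Its Pontin ratios were 0.39 and 0.51 with an adjusted p of 0.342 in the limma fit, and its p53 ratios -0.13 and 0.0014. The second ST14 probe set kept the sign at a smaller size in the pair on p53 shRNA, with Pontin ratios of 0.37 and 0.09.

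**Figure D3:**
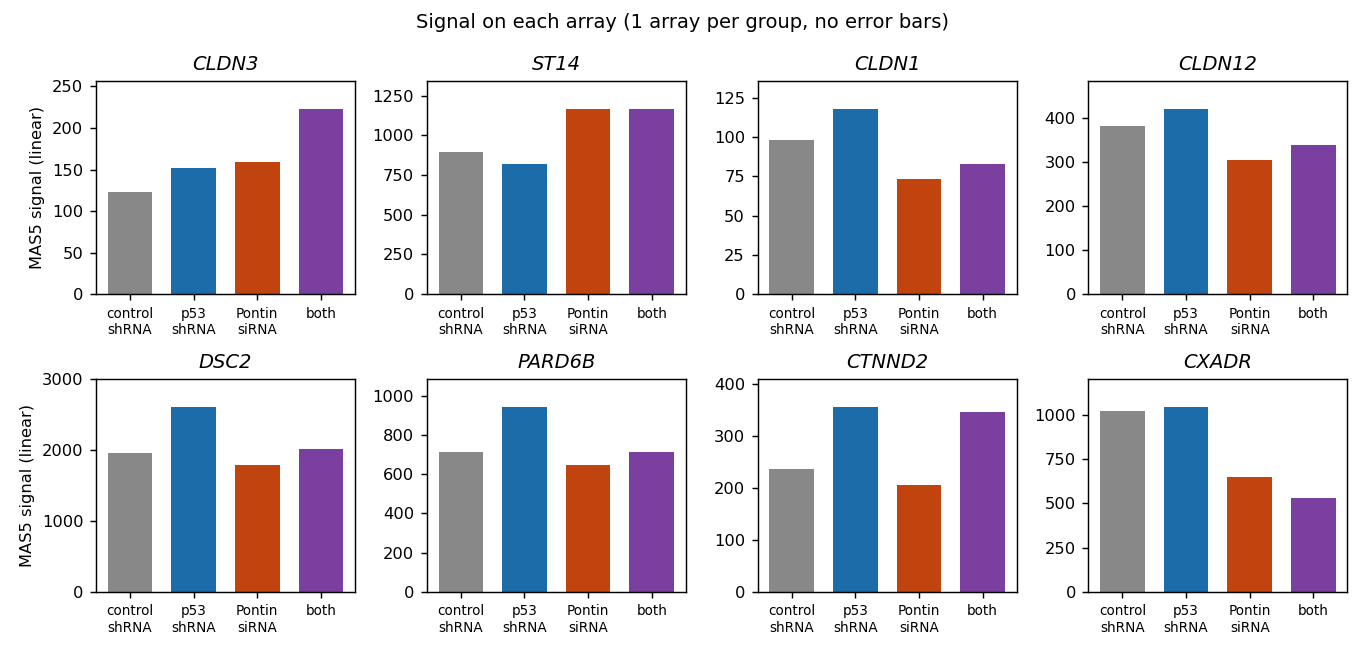
MAS5 signal (linear, bars from 0, each panel on its own vertical scale) on each of the 4 arrays for 6 members and for CTNND2 and CXADR, the 2 called genes of the wider list. There is 1 array per group and so no error bar. Both Pontin siRNA arrays are above the other 2 for ST14 and CLDN3, and below them for CLDN1, CLDN12, PARD6B and CXADR. All panels but those of CLDN3 and ST14 are highest with p53 shRNA alone.

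With both agents against the control, 5 of 26 members were higher by a log2 ratio of at least 0.32 (CLDN3, CLDN7, CLDN23, DSP and ST14) and 0 lower. Over all genes kept the shares were 17.7% and 14.9%. Among bright genes 4 members were higher and 0 lower, where the shares were 9.12% and 12.6%. The median over the members was 0.07, and the range ran from -0.25 (CLDN1) to 0.86 (CLDN3). The departure from additivity, the log2 signal with both minus those with each agent alone plus the control, was upward by at least 0.32 in 1 member, CLDN8 at 0.92, and downward in 0, where 14.2% and 14.3% of all genes kept reached that size. CLDN8 had the lowest mean signal of the members kept. The largest downward departures were those of PKP3 at -0.31, PARD6B at -0.27 and DSC2 at -0.24, and that of CLDN3 was 0.18.

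More than 1 probe set of a gene gives a second measurement of its transcript on the same arrays, and the agreement was partial. Of the 62 probe sets of the members, 54 were at or above 15, and 17 members had more than 1 of these. All probe sets of a gene had the same sign of the p53 mean in 6 of the 17 (CTNNA1, DSC2, CLDN3, OCLN, TJP3 and PARD3), and of the Pontin mean in 8 (DSG2, DSC2, CLDN1, CLDN3, CLDN23, TJP1, TJP3 and ST14). PARD6B was among those that split: its dim second probe set had a p53 mean of -0.21 and a Pontin mean of 0.58, both opposite to the brightest. Averaging all probe sets of a gene turned the sign of 14 of the members' mean ratios, among them both means of PKP3, MARVELD2 and MARVELD3.

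**Figure D4:**
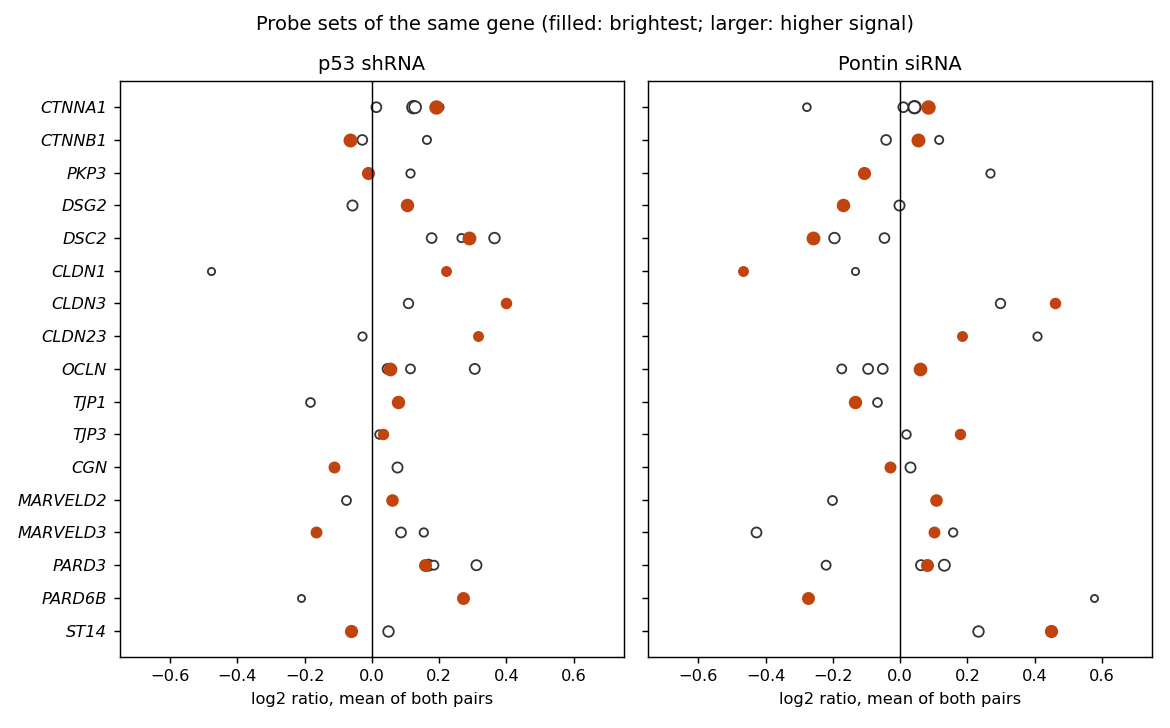
Mean log2 ratio of both pairs (horizontal axis) for each probe set at or above the signal minimum, in the 17 members with more than 1, for p53 shRNA (left) and Pontin siRNA (right). Filled circles are the brightest probe set of the gene and circles grow with signal; DSC2, CLDN3 and TJP3 lie on one side of 0 in both panels, while MARVELD3, PARD6B and MARVELD2 straddle it.

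The wider family was read from a list of 73 other junction and polarity genes, of which 69 had a probe set and 43 were kept. With p53 shRNA 1 was called higher and 0 lower, and with Pontin siRNA 0 higher and 1 lower, where the shares of all genes kept were 1.44%, 0.866%, 1.19% and 1.253%. CTNND2 encodes delta-catenin, a relative of p120 catenin best known from neurons. It read 236 in the control, 357 after p53 shRNA, 205 after Pontin siRNA and 346 after both, so that both p53 shRNA arrays were above both others. Its p53 ratios were 0.60 and 0.75, the first barely past the bar. The call was lost with median centring, quantile normalization, the pseudocount, the mean over probe sets and without _s_at and _x_at probe sets. Its second probe set, 166, 278, 118 and 160 in the same order, had p53 ratios of 0.74 and 0.43. There the array with both agents lay below the control, and the Pontin ratios were -0.49 and -0.80. On the brightest probe set the Pontin ratios were -0.21 and -0.05.

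CXADR encodes the coxsackievirus and adenovirus receptor, an adhesion protein of the tight junction. It read 1022 in the control, 1049 after p53 shRNA, 648 after Pontin siRNA and 531 after both. Both Pontin siRNA arrays were below both others, with ratios of -0.66 and -0.98, and the p53 ratios were 0.04 and -0.29. A second probe set, 525, 541, 297 and 221, gave Pontin ratios of -0.82 and -1.29, and another gave -0.15 and -0.25. The dimmest of its 4 probe sets, at a geometric mean of 20.7, had Pontin ratios of opposite sign, -0.41 and 0.39. The call held under each normalization tried and was lost with the mean over probe sets and at 2-fold. Of the 43 wider genes kept, 19 were above 0 and 12 below 0 in both p53 pairs, and 16 and 12 in both Pontin pairs. Of all genes kept 30.7% and 32.1% did so for p53 shRNA and 33.8% and 31.9% for Pontin siRNA. The medians of the wider genes were 0.08 and 0.07.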

How the data were processed

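The deposited values are linear intensities, MAS5 signals per the submitters' processing notes, which give no version; each array had been scaled by the authors, as the trimmed means in the deposited table show. Gene names came from the platform annotation: 41091 of 54675 carried 1 symbol (41037 matched to the RefSeq gene table by gene ID), 1801 several and 11777 none listed. Signals were taken to log2 without a pseudocount, and the 14 signals of 0 were set to 0.1. Genes with a geometric mean signal of at least 15 were kept (12128). The arrays, 1 per group, limit the precision by their number.

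The members, the wider list, the markers and the size rules were chosen with earlier results of these data known. All 30 members are named. Described in full are those called, those past the lower bar of log2 0.32 in both pairs, and CDH1, CDH3, CTNNA1, CTNNB1, JUP, DSP, CLDN3, CLDN4, CLDN7, OCLN, TJP1 and EPCAM. Other members' pair values, and wider genes' alternatives, were chosen after the values were seen, as were the promoters shown. The gene that the p53 shRNA targets is not reported here.

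Alternatives were median centring, quantile and cyclic loess normalization, a pseudocount of 16, the mean over probe sets, exclusion of _s_at and _x_at probe sets, no signal minimum, the bright level as minimum, the lower bar and 2-fold as call rules, JUP counted as adherens, an arithmetic mean for the minimum, and an additive limma fit with Benjamini-Hochberg adjustment (limma 3.58.1, R 4.3.3; Python 3.11.15, pandas 2.3.3). The calls and the fit were tested on simulated data.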

Additional observations from a re-analysis of the deposited data

Results flagged for a closer look

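The members had 54 probe sets with a geometric mean signal of at least 15. In 3 of them the pairs of a knockdown moved in opposite directions by a log2 ratio of at least 0.32. None of the 3 was the brightest of its gene, and the difference between pairs was not tested. Among the brightest probe sets of all 12128 genes kept, 441 did so with p53 shRNA and 432 with Pontin siRNA. Such opposition was therefore not particular to the members. Its share over all probe sets is not given here. For CTNNA1, a dim probe set had p53 shRNA log2 ratios of -0.60 and 1.0 and Pontin siRNA ratios of -1.08 and 0.52, with signals of 40.8, 26.9, 19.3 and 38.7 for control shRNA, p53 shRNA, Pontin siRNA and both. For CTNNB1, a dim probe set had p53 shRNA ratios of -1.03 and 1.35 and Pontin siRNA ratios of -1.07 and 1.31, with signals of 56.2, 27.6, 26.7 and 68.2. For CLDN1, a dim probe set had Pontin siRNA ratios of -0.85 and 0.58, with signals of 31.4, 13.7, 17.4 and 20.5. The brighter probe sets of these genes showed no such opposition. For CTNNA1 and CTNNB1 the ratios of both knockdowns come from the same signals, so their oppositions are not separate findings.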

How the results depend on the processing

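The labels give no replicate numbers, so no fit with replicate numbers as a block could be made, and the matched pairs stand in the report. Over all the alternatives, the count of members called stayed at 0 with p53 shRNA. With Pontin siRNA it was 2 higher and 1 lower at the lower bar of log2 0.32, and 1 higher (CDH1) without a signal minimum. The members' median ran from -0.0141 (median centring) to 0.12 with p53 shRNA. For Pontin siRNA it was -0.11 under median centring and 0.0067 when probe sets were averaged. Median centring also moved the p53 sub-group medians to -0.0665 (adherens), -0.016 (desmosome), -0.0511 (tight junction), 0.0278 (polarity) and -0.0958 (surface), and the Pontin ones to -0.10, -0.29, -0.0717, -0.0993 and 0.0485 in that order. The mean over probe sets gave p53 medians of 0.13 (tight junction), 0.11 (polarity) and 0.19 (surface), and Pontin medians of 0.0113 (adherens), -0.0474 (tight junction) and 0.0281 (surface). Without _s_at and _x_at probe sets, which left 19 of 26 members, the p53 medians were 0.19 (polarity) and -0.0622 (surface), and the Pontin ones -0.11 (adherens), -0.10 (polarity) and 0.45 (surface). Quantile normalization gave p53 medians of 0.18 (polarity) and 0.0053 (surface), and loess 0.16 (polarity). Without the signal minimum the adherens Pontin median was 0.47, and with JUP counted as adherens the p53 one was -0.0649. The alternatives for the wider list were chosen after seeing the data. Wider genes called higher with p53 shRNA numbered 2 at the lower bar, 4 without a minimum, and 0 at 2-fold, with median centring, quantile normalization, the pseudocount, the mean over probe sets, and without _s_at and _x_at probe sets. Those called lower numbered 2 with median centring and at the lower bar, and 1 with quantile or loess normalization, the mean over probe sets, or no minimum. With Pontin siRNA, 1 was higher at the lower bar and 3 without a minimum, while 2 were lower without a minimum and 0 at 2-fold or with the mean over probe sets. Among 298 alternative values of single members, 35 had the other sign from the reported one, 18 of them with median centring and 14 where probe sets were averaged. The cause of these shifts was not tested. The members below the signal minimum of 15 numbered 2 with the geometric mean, the arithmetic mean and the mean over probe sets. Dim probe sets limit CLDN1, CLDN8 and CLDN23, and nothing here measures the spread between cultures.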
